A study of Mus musculus with 2 samples.

Results

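The 10 genes described here, Dazl, Ddx4, Mael, Sycp1, Sycp3, Hormad1, Stk31, Piwil2, Tdrkh and Rhox9, are germline genes of the mouse that are known to be silenced through promoter methylation. They were chosen by name, and every probe set whose annotated gene symbol was exactly one of these names was taken. That gave 10 probe sets for 8 of the genes, out of 28898 probe sets naming 1 gene and 45118 in all. By this rule Sycp1 and Tdrkh had 0 probe sets and are not analysed here beyond their promoters. Promoter methylation was not measured, so the label is background and not a result.

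Transcripts were measured in mouse embryonic stem (ES) cells, the cultured counterpart of the early embryo's pluripotent cells, grown without feeders on gelatin in medium with serum and ESGRO, a leukaemia inhibitory factor product. One group had been infected with a retrovirus carrying a control hairpin RNA and the other with one against H2A.B, a short, testis-enriched variant of histone H2A. Both hairpins were expressed from a U6 promoter in a vector with neomycin resistance, and both cultures were selected with G418 for 2 to 4 weeks, so both had a virus and the drug in common. There was 1 Affymetrix array per group, hence no replicate error and no test, and the labels do not say whether the number 1 in the knockdown sample's title stands for a hairpin, a clone or a culture. No probe set named H2ab1, H2ab2 or H2ab3, which encode H2A.B, as its single gene. The 551 probe sets naming several genes were not searched for them, so how far H2A.B was depleted was not read here.

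The germline programme is closed in most cells of the body. Its promoters are rich in CpG, gain DNA methylation when the embryo implants, and stay methylated in somatic cells. In ES cells a Polycomb complex that contains E2F6 and the Mga-Max pair, which binds E-boxes, also holds many of these promoters down, and low transcription of some germline genes is common in such cultures. The genes themselves act in germ cells: some regulate RNA, some serve the piRNA pathway that silences transposons, and some build the chromosome axes of meiosis.

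The promoters show what the genes share in sequence. RefSeq promoter windows of 300 bases, from 250 before to 50 after a transcript start on GRCm38.p6, were found for 8 of the 10 genes, all but Piwil2 and Rhox9, and made up 10 windows, of which the pairs of Hormad1 and of Stk31 overlap. These windows held a median of 24.5 CpG dinucleotides, from 15 in Sycp3 to 38 in Ddx4, against a median of 7 over all 32851 windows of the table. The E-box CACGTG, which reads the same on both strands and itself holds a CpG, was present in 8 of the 10 windows, those of Ddx4, Hormad1, Mael, Stk31, Sycp1 and Sycp3. It was present in 7.15% of all windows, in 11.3% of the 11378 windows with at least 15 CpG, and in 16 of 60 windows (26.7%) of 47 other germline genes, which had a median of 17.5 CpG. Sycp3 and Hormad1 held 2 copies each, and Dazl and Tdrkh had none in these letters. The E2F-type letters GCGGGA, searched on both strands, were found in 6 of the 10 windows, of the genes Ddx4, Hormad1, Mael, Sycp1 and Sycp3, against 6562 of all 32851 windows, 45.4% of those with at least 15 CpG, and 28.3% of those of other germline genes. These matches describe letters in a window and do not show that a factor binds there. The 250 bases before the start are printed for 4 genes, 5′ to 3′ on the gene's strand, with every CpG in capitals: Dazl and Stk31, whose paired probe sets differed in sign below, Sycp3 with the fewest CpG, and Ddx4 with the most. The E-box appears in them as caCGtg.
Dazl, chr17:50293621-50293870, minus strand: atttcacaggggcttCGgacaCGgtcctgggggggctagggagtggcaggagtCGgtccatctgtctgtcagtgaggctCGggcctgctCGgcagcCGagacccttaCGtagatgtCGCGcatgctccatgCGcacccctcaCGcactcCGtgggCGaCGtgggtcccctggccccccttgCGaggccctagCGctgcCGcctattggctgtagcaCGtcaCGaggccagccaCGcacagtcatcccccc
Stk31, chr6:49395289-49395538, plus strand, the first of 2 starts: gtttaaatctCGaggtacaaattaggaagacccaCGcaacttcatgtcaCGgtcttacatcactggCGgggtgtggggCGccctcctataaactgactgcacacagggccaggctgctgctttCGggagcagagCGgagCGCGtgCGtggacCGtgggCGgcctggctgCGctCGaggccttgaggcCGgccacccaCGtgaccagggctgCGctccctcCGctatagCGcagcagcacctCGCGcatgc
Sycp3, chr10:88459337-88459586, plus strand: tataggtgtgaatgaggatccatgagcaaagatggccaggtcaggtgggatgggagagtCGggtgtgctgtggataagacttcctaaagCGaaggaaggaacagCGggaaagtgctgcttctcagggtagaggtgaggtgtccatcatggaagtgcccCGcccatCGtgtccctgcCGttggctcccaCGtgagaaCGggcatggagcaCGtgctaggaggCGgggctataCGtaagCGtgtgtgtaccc
Ddx4, chr13:112652311-112652560, minus strand: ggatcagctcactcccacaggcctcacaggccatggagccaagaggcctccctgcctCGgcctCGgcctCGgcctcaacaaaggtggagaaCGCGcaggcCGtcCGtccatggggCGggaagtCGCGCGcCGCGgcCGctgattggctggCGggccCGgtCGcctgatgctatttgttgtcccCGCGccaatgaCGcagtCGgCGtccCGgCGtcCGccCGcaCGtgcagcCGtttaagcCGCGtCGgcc
Dazl held 20 CpG in the printed stretch, Stk31 21, Sycp3 12 and Ddx4 31. The E-boxes of Sycp3 began at -64 and -43 from the start, that of Stk31 at -55 and that of Ddx4 at -29.

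**Figure D1:**
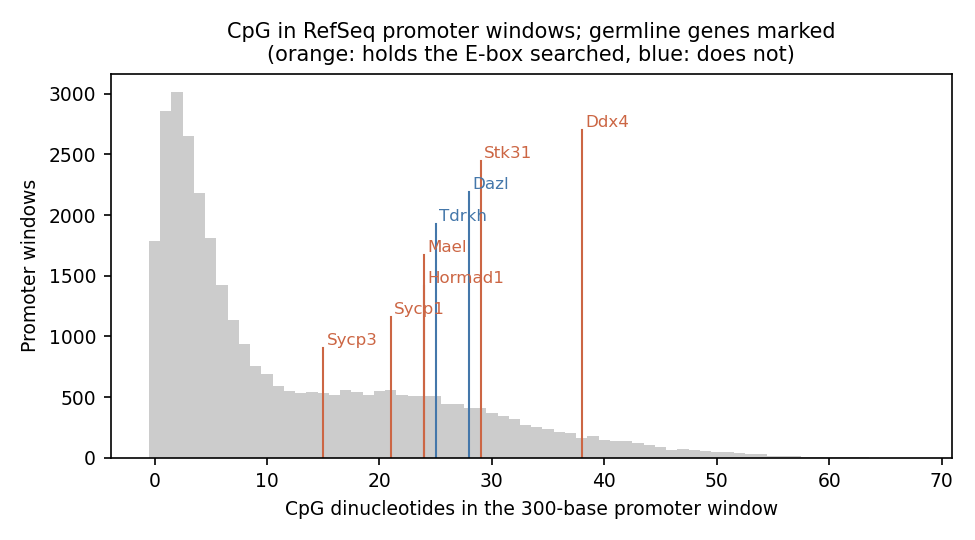
Number of CpG dinucleotides per 300-base RefSeq promoter window (x) against the number of windows (grey bars, y), with a line for 1 window of each of the 8 germline genes found. The line heights carry no value. The genes lie between 15 and 38 CpG, to the right of the median of 7 over all windows, and the 2 lines in blue, Dazl and Tdrkh, mark windows without the E-box searched.

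Before the values, 2 faults of the deposited table have to be named, because they decide which member values can be used. In the knockdown column 616 values between rows 2054 and 4710 form a series rising in steps of 1 and 2 others exceed 20; none of the 618 belonged to a germline probe set, but the first-section probe set of Dazl, at row 3873, lies among those rows. In the control column 1455 values, all between rows 18185 and 33642, repeat to the last digit a value up to 20 rows above, and 1 of them was that of Mael. The rows before, within and after them give 3 sections of the table, here the first, the middle and the last. Differences were narrow in the first section, with a median absolute log2 difference of 0.04 over 13833 single-gene probe sets, and wider in the middle (0.15 over 6785) and the last (0.17 over 6996). Each germline difference is therefore read against probe sets of its own section. Pearson's r between the arrays was 0.984, over usable probe sets, which are not independent replicates.

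No germline probe set differed by 2-fold or more between the arrays. Of 9 usable probe sets, from 7 genes, 0 were 2-fold higher on the knockdown array and 0 were 2-fold lower, where 1.12% and 3.07% of all 27614 usable single-gene probe sets were. At such low shares a count of 0 among 9 is near the background and does not set the members apart. In this count 4 lay above 0 and 5 below, and the median log2 difference, knockdown minus control, was -0.03 against -0.01 over all probe sets. The median absolute log2 difference was 0.35, against 0.07 over all, but 6 of the 9 lie in the wider middle and last sections. Within sections it was 0.35 for 5 members against 0.17 in the last, and 0.45 for 3 members against 0.04 in the first; Piwil2 alone lies in the middle. With 9 values from 1 array per group these figures describe the probe sets and are no test. In a bulk culture, fewer expressing cells and less RNA per cell cannot be told apart.

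**Figure D2:**
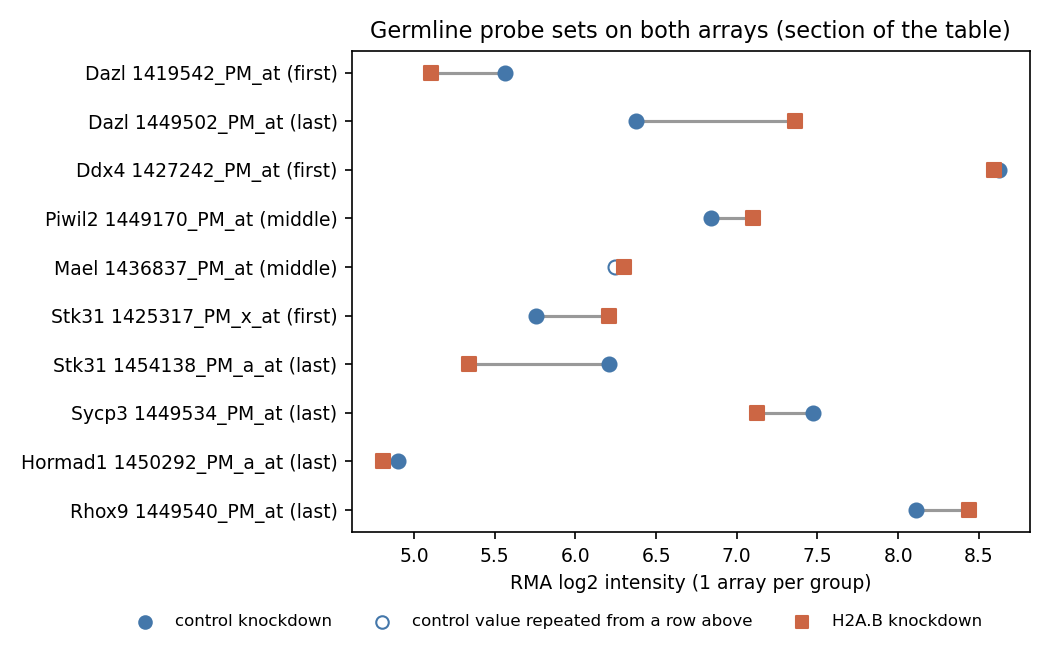
RMA log2 intensity (x) of the 10 germline probe sets on the control array (circles) and the H2A.B knockdown array (squares), with the section of the table in brackets; each point is 1 array and there are no error bars. The open circle marks the Mael control value that repeats a row above. The widest gaps are those of the last-section probe sets of Dazl and Stk31, and they run in opposite directions.

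Dazl encodes an RNA-binding protein that controls translation in germ cells and is needed for their development. Its probe set 1449502_PM_at, in the last section, had a log2 intensity of 6.37 in control cells and 7.36 in knockdown cells. The knockdown value was 1.99-fold higher, a log2 difference of 0.99, and so just under the 2-fold rule. Of 893 probe sets of like brightness in the same section (mean within 0.5 on the log2 scale) 5.04% were higher on the knockdown array by at least as much. In either direction 8.17% differed by at least as much. The other probe set, 1419542_PM_at in the first section, went the other way: 5.57 in control cells and 5.10 in knockdown cells, 1.38-fold lower (-0.46). Among 1990 like probe sets of the first section 4.27% were lower by at least as much, and 6.13% differed by that much in either direction. Both Dazl differences were thus among the wider ones of their sections, and their signs were opposite.

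Ddx4 encodes the germ-cell RNA helicase known as mouse Vasa, a component of germ granules. Its single probe set, in the first section, had 8.62 in control cells and 8.59 in knockdown cells, a log2 difference of -0.03. It lay above 82.4% of all values on both arrays, so it was bright on both. Of 1611 like probe sets, 68.3% differed by at least as much, and Ddx4 had the smallest difference of the 7 germline genes with a usable value.

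The piRNA pathway gave 1 usable gene and 1 related gene. Piwil2, also called Mili, binds piRNAs in fetal and adult male germ cells. Its probe set lies in the middle section, at a row where the control value was not a repeat, and had 6.84 in control cells and 7.10 in knockdown cells (0.26). That is within the bulk of its section, where 42.3% of 822 like probe sets differed by at least as much. Mael, the mouse Maelstrom, which is needed for transposon silencing, had a deposited control value of 6.25 and a knockdown value of 6.30. The same control value stands 2 times in the table, so it cannot be tied to Mael, and no difference is given for the gene. Tdrkh, a Tudor protein that partners PIWI proteins during piRNA maturation, had no single-gene probe set.

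Stk31, a germ-cell gene whose product joins a Tudor domain to a kinase-like domain, showed the second disagreement between probe sets. 1454138_PM_a_at, in the last section, had 6.21 in control cells and 5.34 in knockdown cells, 1.83-fold lower (-0.87). Of 1095 like probe sets 8.95% were lower by at least as much, and 13.1% differed by that much in either direction. 1425317_PM_x_at, in the first section, had 5.75 in control cells and 6.21 in knockdown cells, 1.37-fold higher (0.45). Here 2.09% of 1866 like probe sets were higher by at least as much, and 7.5% differed by that much in either direction. By Affymetrix naming, an x probe set holds probes that can match other transcripts, and an a probe set matches several transcripts of the same gene; whether this bears on the difference in sign was not tested.

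Among genes of the meiotic chromosome axis, Sycp3 and Hormad1 both had lower values on the knockdown array, within the spread of their section. Sycp3 is the main protein of the lateral elements of the synaptonemal complex. It had 7.47 in control cells and 7.13 in knockdown cells, 1.27-fold lower (-0.35). Of 806 like probe sets of the last section 19.5% were lower by at least as much, and 28.8% differed by that much in either direction. Hormad1, an axis protein that promotes homologue pairing and monitors unsynapsed chromosomes, had 4.90 in control cells and 4.81 in knockdown cells (-0.10). It lay above only 37.8% of the control array's values, and 65.4% of 1146 like probe sets differed by at least as much. Sycp1, the transverse filament protein that joins the paired axes, had no single-gene probe set.

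Rhox9, a reproductive homeobox gene of the X chromosome, had a higher value on the knockdown array. Its probe set had 8.11 in control cells and 8.44 in knockdown cells, 1.25-fold higher (0.33). Of 766 like probe sets of the last section 7.57% were higher by at least as much, and 23.2% differed by that much in either direction. Rhox6, a close paralogue of Rhox9 in the same cluster, had 7.90 in control cells and 7.87 in knockdown cells (-0.03) on its first-section probe set. Whether either probe set also reads the other gene was not tested.

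**Figure D3:**
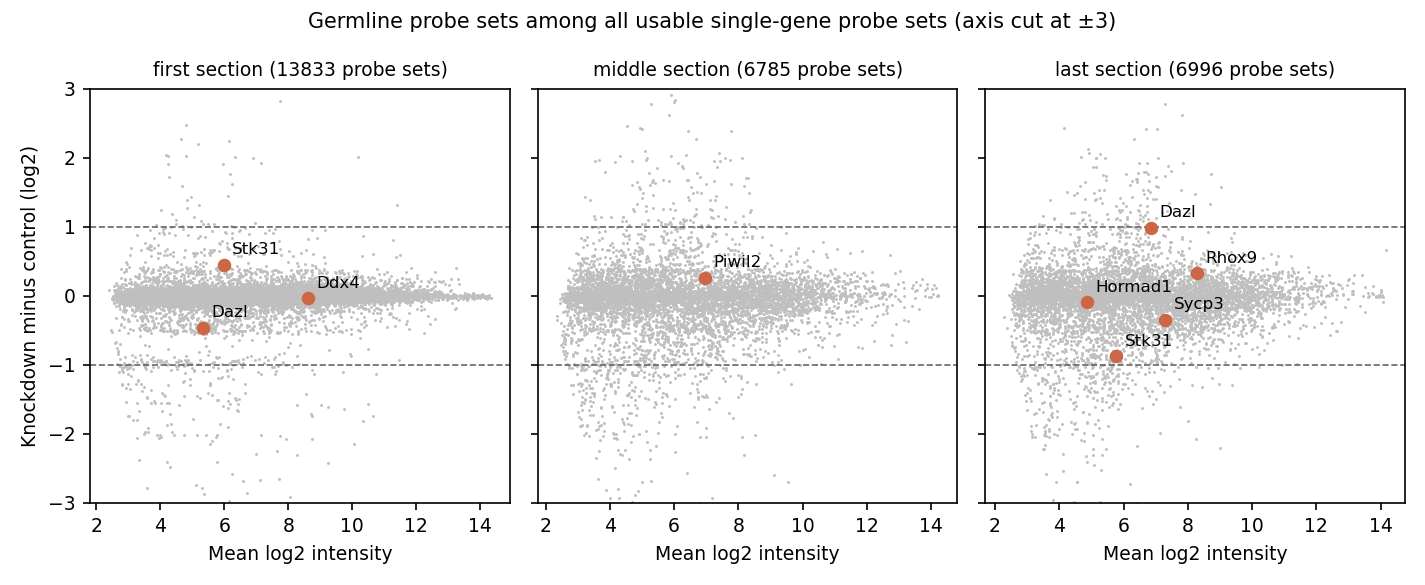
Log2 difference, knockdown minus control (y), against mean log2 intensity over both arrays (x) for all usable single-gene probe sets (grey) and the 9 usable germline probe sets (orange), by section of the table. Dashed lines mark 2-fold. The grey cloud is narrow in the first section and wide in the other 2, and Dazl reaches 0.99 in the last section while its first-section probe set stands at -0.46.

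The gaps within Dazl and within Stk31 were wide beside those of other genes. In total 2347 genes had a usable probe set in the first section and one in the last, and the one of higher mean was taken where a section held several. The gap between the 2 log2 differences was 1.45 for Dazl and 1.32 for Stk31, and 2.13% and 2.51% of these genes had a gap at least as large. In 124 genes both differences were at least 0.4 in size: the signs matched in 105 and were opposite in 19, and Dazl and Stk31 are 2 of those 19. Between the first and last sections the differences of one gene hardly ranked alike (Spearman rho 0.17 over 2347 genes). For pairs within a section rho was 0.23 in the first (2565 genes) and 0.16 in the middle (1095 genes). In the last it was 0.83 (861 genes), so low agreement in rank was also found within the first and middle sections. Where both differences of such a pair were at least 0.4 in size, signs matched in 38 of 45 genes in the first. They matched in 92 of 106 in the middle and in 165 of 169 in the last. These are descriptions across genes that share 2 arrays. Since the probe sets of Dazl and of Stk31 differed in sign, no direction is given for either gene. Only these 2 germline genes had more than 1 single-gene probe set, and for the other 5 measured genes there was no second such reading.

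**Figure D4:**
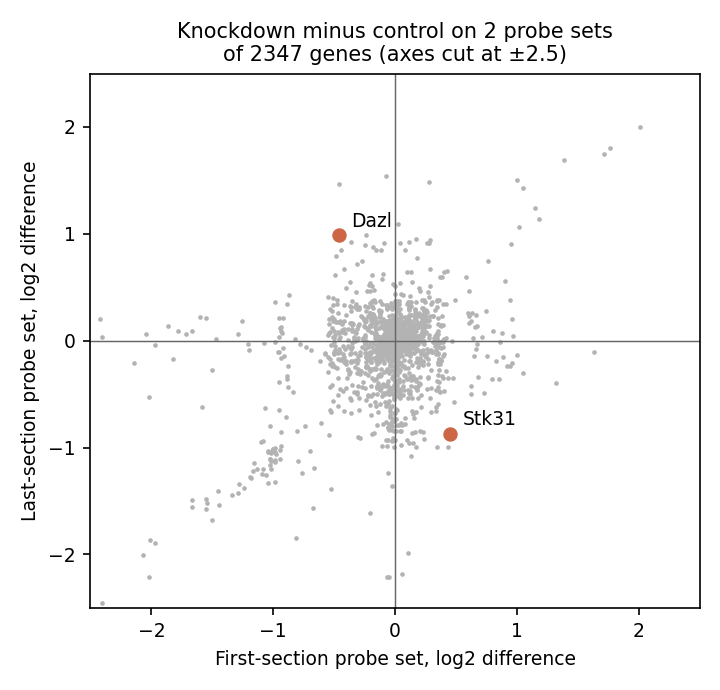
Log2 difference, knockdown minus control, on a first-section probe set (x) and a last-section probe set (y) of the same gene for 2347 genes (grey), with Dazl and Stk31 in orange. Each point is 1 gene on 1 array per group. Dazl lies at -0.46 and 0.99 and Stk31 at 0.45 and -0.87, in opposite corners off the diagonal.

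Other germline genes were read from a list of 58 genes of the piRNA pathway, meiosis, the Rhox cluster and other germ cell functions, of which 49 had a usable probe set. Of their 57 probe sets 2 were 2-fold higher and 2 were 2-fold lower on the knockdown array, against 1.12% and 3.07% of all usable single-gene probe sets, and the median log2 difference was -0.02. The higher ones were Gtsf1, a piRNA pathway gene (5.20 in control cells and 6.32 in knockdown cells, 1.12), and Ddx43, a germ-cell RNA helicase gene (6.54 and 7.56, 1.03). The lower ones were Tex101, a germ-cell surface protein gene (5.42 and 3.45, -1.96), and Rhox13 (5.92 and 4.87, -1.04). Of these, 3 lay in the middle section, where 2.05% of all probe sets were 2-fold higher and 4.83% lower, and Gtsf1 in the last, where 1.79% were higher and 4.53% lower. In the first section 0 of 29 probe sets passed 2-fold, where 1.79% of all did. The median absolute log2 difference of those 29 was 0.03, while the first-section probe sets of Dazl (-0.46) and Stk31 (0.45) were wider than any of them (-0.43 to 0.08).

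Genes listed for keeping germline promoters silent were counted in the same way. The 24 genes were those of DNA methylation, the E2F6 Polycomb complex and H3K9 methylation, with Zfp42, which is also read below as an ES cell marker. Of 44 usable probe sets from 23 genes 0 were 2-fold higher and 2 were 2-fold lower, where 1.12% and 3.07% of all usable single-gene probe sets were, so the count of lower ones is near the background. The median log2 difference was 0.0032. The 2 lower ones were Cbx3, which encodes the heterochromatin protein HP1 gamma (11.31 in control cells and 10.18 in knockdown cells, -1.13), and Ehmt1, a partner in H3K9 methylation (10.71 and 9.69, -1.02). That Cbx3 probe set lay in the first section, where 1.47% of probe sets were 2-fold lower, and Ehmt1 in the last, where 4.53% were. The second Cbx3 probe set, a dim one of the middle section, was also lower (4.11 and 3.11), just short of 2-fold. Whether these differences bear on the germline genes was not tested.

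Markers of the cell types a culture could hold were read beside these results, and their part in the germline values was not tested. ES cell markers were alike on both arrays, from -0.10 to 0.33 over 13 probe sets of 9 genes, with Pou5f1 at 12.65 in control cells and 12.64 in knockdown cells. Fibroblast and feeder markers ran from -0.09 to 0.26 over 11 probe sets of 10 genes. Only 3 of 8 listed two-cell-like genes had a single-gene probe set, and these ran from -0.25 to -0.0043. The listed Zscan4 genes and Dux had none, and probe sets naming several genes were not read for them. Later germ cell markers had 13 probe sets of 12 genes, from -1.78 to 0.64. Of these 2 were 2-fold lower, both of the acrosome gene Zpbp, named here after its values were seen, at control levels of 4.53 and 3.82 and knockdown levels of 2.76 and 2.34. Both lie in the last section, where 4.53% of all probe sets were 2-fold lower.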

How the data were processed

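Total RNA (2 µg per culture) was labelled with biotin and hybridised to 1 Affymetrix array per group. The deposited table holds a log2 intensity per probe set, made by the authors with RMA (background correction, quantile normalisation and probe set summary), per the submitters' processing notes; the version and the log base are not given in the sources used here, and log2 was read from the range of 0.801 to 14.5 in the control column. The knockdown column as deposited was recorded as a score, because 618 of its values are not log2 intensities. These were left out and the rest read as log2 intensities like the control's; 1455 repeated control values were left out too. Genes were named from the platform annotation, with 28898 probe sets naming 1 gene. No centring, brightness filter or gene summary was applied, the rule of size was 2-fold, and all members were described on every usable probe set. Promoter sequences came from RefSeq (GRCm38.p6). Of the 2 other lists, members past 2-fold were named. Members, lists and exclusions were chosen with earlier results of these data known. The searches for faulty values were tested on simulated data with planted steps of 1 and planted copies within the control column. Control values that copy a knockdown value were not simulated, so the test does not cover them. Python 3.11.15, pandas 2.3.3, numpy 2.4.6 and statsmodels 0.14.6 were used. An array gives no read depth, and 1 array per group limits the precision.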

Additional observations from a re-analysis of the deposited data

How the results depend on the processing

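The count of 0 germline probe sets at 2-fold was 0 under all 8 alternatives that kept the 2-fold rule, which were keeping repeated control values, leaving out both members of repeated pairs, median or lowess centring, bright probe sets, probe sets without a suffix, the brightest per gene, and rows outside the repeats. At 1.5-fold it was 2, the last-section probe set of Dazl, which was higher, and that of Stk31, which was lower. The first-section probe set of each gene went the other way. At 1.5-fold 9.1% of all probe sets passed, and 14.7% of those in the last section. Settings that only drop probe sets could not raise the count of 0 at 2-fold, and keeping repeated control values added only Mael. Centring moved no member by more than 0.006 on the log2 scale. The median difference of -0.03 was 0.26 with bright probe sets or the brightest per gene and 0.12 without suffixes; those settings drop members. The median absolute difference was 0.45 over the 3 first-section probe sets alone, an alternative chosen after seeing the data. Other germline calls fell from 4 of 57 probe sets to 2 of 30 with bright probe sets, since the lower ones, Tex101 and Rhox13, were dim. Outside the rows with repeats they fell to 1 of 43. The share of all bright probe sets called is not given. Outside the rows with repeats, 1.79% of all first-section and 6.32% of all last-section probe sets passed 2-fold, and 1 of 43 lies within that range. Repressor calls were 4 of 44 at 1.5-fold, all lower, where 6.23% of all probe sets were 1.5-fold lower. Leaving out a replicate was not possible with 1 array per group. No paired analysis was possible because each group has 1 array.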
